A study of Mus musculus with 4 samples.

Results

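The Ikaros family was examined in lymphoid-primed multipotent progenitors (LMPPs), early blood progenitors of the bone marrow, from Lyl1-null and wild-type mice. Its members were taken as every probe set of the array whose annotated symbol is exactly Ikzf1, Ikzf2, Ikzf3, Ikzf4 or Ikzf5. These 5 genes had 13 of the 45037 probe sets, with 2 probe sets for Ikzf1, 3 each for Ikzf2, Ikzf3 and Ikzf4, and 2 for Ikzf5. LMPPs were sorted from marrow by flow cytometry: lineage-negative cells positive for c-Kit and Sca-1 and bright for Flt3. The C57Bl/6 mice were 6 to 8 weeks old and either Lyl1-null (KO) or wild type (WT). RNA of 2 samples labelled KO and 2 WT samples was hybridised, each to its own array, and no treatment or other allele is given for either group. Arrays are named by label and number, as KO 1, KO 2, WT 1 and WT 2. Nothing in the labels tells whether samples of 1 group are different mice or pools, so every p-value reflects the spread between these 4 samples, and part of that spread may be technical.

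Lyl1 belongs to the basic helix-loop-helix transcription factors and is active in blood progenitors, and the comparison asks how LMPPs that lack it differ from wild type. The Ikaros family are zinc finger transcription factors that bind DNA around a GGGAA core through N-terminal fingers and form homodimers and heterodimers through C-terminal fingers. Ikzf1 encodes Ikaros, which is needed for lymphoid development and for the lymphoid priming of LMPPs. Ikzf2 encodes Helios, known from stem and early progenitor cells and from regulatory T cells. Ikzf3 encodes Aiolos, which increases as B cells mature. Ikzf4 encodes Eos, known as a partner of Foxp3 in regulatory T cells, and Ikzf5 encodes Pegasus, the most distant member. Ikaros proteins recruit the NuRD chromatin remodelling complex and the CtBP corepressors.

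The values are log2 expression values, 1 per probe set and array. Probe sets with a mean over the 4 arrays at or above 5.69, the median of all probe-set means, were tested for a difference between the groups, and the others are called dim. Of the 13 family probe sets, 6 were tested and 7 were dim. A signal is comparable between arrays for 1 probe set, but not between probe sets as an amount of RNA. All adjusted p-values are two-sided, from limma with Benjamini-Hochberg adjustment over the 22519 probe sets tested, and differences are KO minus WT. In sorted populations such as these, fewer cells of a type and less RNA per cell cannot be told apart.

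The labels were checked first. Lyl1 itself read 5.14 on the array labelled KO 1 and 10.32 on the array labelled KO 2, against 12.34 and 12.29 on the WT arrays. The second value goes against its label, and the same array had 14.26 for Xist, against 5.81 to 6.30 in the other 3. Eif2s3y, the other sex-linked gene checked, read 8.44 on this array in its brighter probe set, against 10.07 to 10.15 in the other 3. It was thus lower there but still above the filter. Between this array and each of the others, 1076 to 1922 of the tested probe sets differed at least 2-fold, against 79 to 241 among the other 3. The values of the family probe sets are therefore given for each array labelled KO. List medians and the genes named from lists are given by array or as differences from the WT mean on KO 1 and KO 2. Some further probe sets of those genes, read beside the brightest, have only the difference of the group means. Genes that define the sorted cell type gave a signal on all 4 arrays, which by itself cannot establish what the cells were. Kit, Flt3, Cd34, Cd48 and Spn were all above the filter on every array, and Ly6a was not analysed here. All 5 had negative differences with no overlap between the groups, where 26.4% of all tested probe sets were lower without overlap. The median of the 5 was −0.56, with the largest drops in Cd48 (−1.03) and Kit (−0.90), and none passed the threshold. On KO 1 and KO 2 in turn, Cd48 had −0.86 and −1.21 and Kit had −0.61 and −1.20. Their median was −0.23 on the array labelled KO 1 and −0.89 on the array labelled KO 2. Of 7 neutrophil genes, all 4 tested were higher on both arrays labelled KO without passing the threshold, where 17.4% of all tested probe sets were higher without overlap. Ltf, among these 4, read 4.93 and 5.10 on the WT arrays, so it was tested only through its values on the arrays labelled KO. The summed neutrophil signal, on the log2 scale, was 10.86 and 10.58 on the arrays labelled KO, against 9.25 and 8.77 on the WT arrays. The part of these cell type genes in the Ikaros family values was not tested.

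No family probe set passed the test: 0 of 6 tested had an adjusted p under 0.05 in limma, where 0.00888% of all tested probe sets were called (the 2 called probe sets belong to Ctse and Lrmda). At an unadjusted p under 0.05 there were 2 of the 6, both of Ikzf2, where 7.39% of all tested probe sets lay under it. That count was 0 with quantile normalization. Of the 6, 3 had lower and 3 had higher values on both arrays labelled KO than on both WT arrays. Over all tested probe sets the groups were separated in this way in 43.9%, with 26.4% lower and 17.4% higher. Among the 3 higher ones, Ikzf1 1421303_at and Ikzf3 1441088_at had both WT values below the filter. They were tested only through their values on the arrays labelled KO. The tested probe sets of the family had differences from −0.75 to 0.39 with a median of −0.034, beside −0.069 over all tested probe sets. The split into lower and higher and the family median therefore depend on the filter. Every family difference was under 2-fold, and the median SE over all tested probe sets was 0.19.

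**Figure D1:**
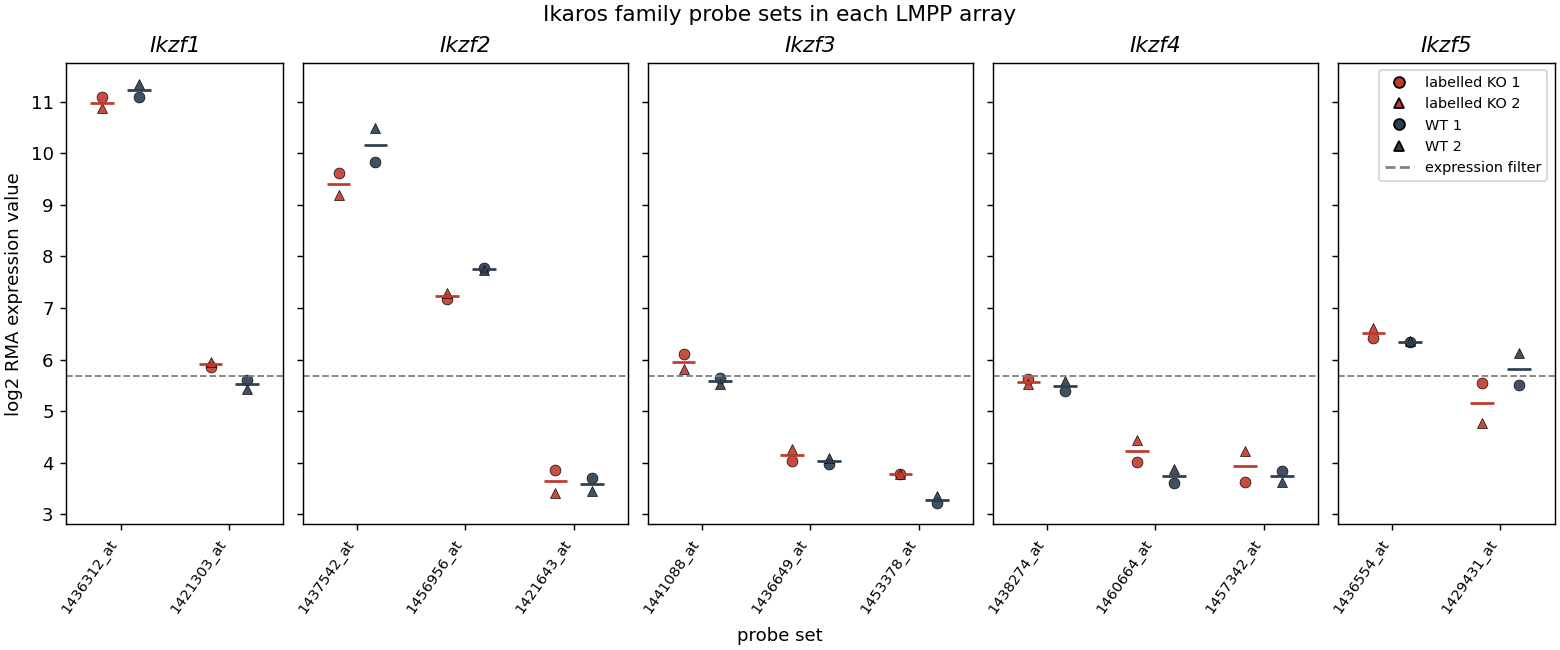
Values of the 13 Ikaros family probe sets on the 4 arrays, by gene, as log2 RMA expression values. Points are single arrays, short lines are group means (n = 2 each) and the dashed line is the expression filter of 5.69. Both bright Ikzf2 probe sets stand lower on the arrays labelled KO, while the bright Ikzf1 probe set lies between 10.88 and 11.35 on all 4 arrays.

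Helios (Ikzf2) had the largest differences of the tested family probe sets, and its values were lower on both arrays labelled KO. The brighter probe set (1437542_at) read 9.63 and 9.20 on the arrays labelled KO 1 and KO 2, against 9.84 and 10.49 on the WT arrays. The groups did not overlap, but the gap between them was smaller than the gap between the WT arrays. The means were 9.41 ± 0.30 on the arrays labelled KO and 10.16 ± 0.46 on the WT arrays (SD, n = 2 each). The difference was −0.75 (SE 0.28, adjusted p = 0.611), 1.68-fold in size. Its 95% interval ran from −1.46 to −0.042 before any adjustment for the number of probe sets.

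The next Ikzf2 probe set (1456956_at) gave the same direction with less spread. It read 7.17 and 7.28 on the arrays labelled KO, against 7.77 and 7.73 on the WT arrays. Here the gap between the groups was several times the spread within either. The difference was −0.53 (SE 0.16, adjusted p = 0.611), or 1.44-fold, with a 95% interval from −0.93 to −0.12. The difference from the WT mean was −0.59 on the array labelled KO 1, whose Lyl1 signal was below the filter, and −0.47 on the array labelled KO 2. The brighter probe set had −0.54 and −0.96 in the same order. Without the array labelled KO 2, the 2 probe sets had differences of −0.54 (adjusted p = 0.794) and −0.59 (adjusted p = 0.608), and 0.0488% of all tested probe sets were called. Without the array labelled KO 1 they had −0.96 (adjusted p = 0.0872) and −0.47 (adjusted p = 0.11), where 10.1% of all tested probe sets were called. The brighter one depended on the WT arrays, with −1.08 without WT array 1 and −0.42 without WT array 2. The stem cell genes Mecom, Procr, Slamf1, Hlf and Fgd5 had a summed log2 signal of 11.95 and 12.23 on the arrays labelled KO, against 12.46 and 12.22 on the WT arrays. Slamf1 and Fgd5 were dim. Of the 3 tested, 1 was positive (Procr, 0.46) and 2 were negative (Hlf, −0.62, and Mecom, −0.18), so the sum joins genes of opposite sign. On KO 1 and KO 2 in turn, Procr had 0.31 and 0.61, Hlf −0.71 and −0.52, and Mecom −0.63 and 0.27. The part of the stem cell genes in the Ikzf2 values was not tested.

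The third Ikzf2 probe set (1421643_at) was dim. It read 3.85 and 3.42 on the arrays labelled KO, against 3.70 and 3.45 on the WT arrays, so the groups overlapped. In the array annotation this probe set carries a RefSeq transcript accession and the other 2 carry other accessions.

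**Figure D2:**
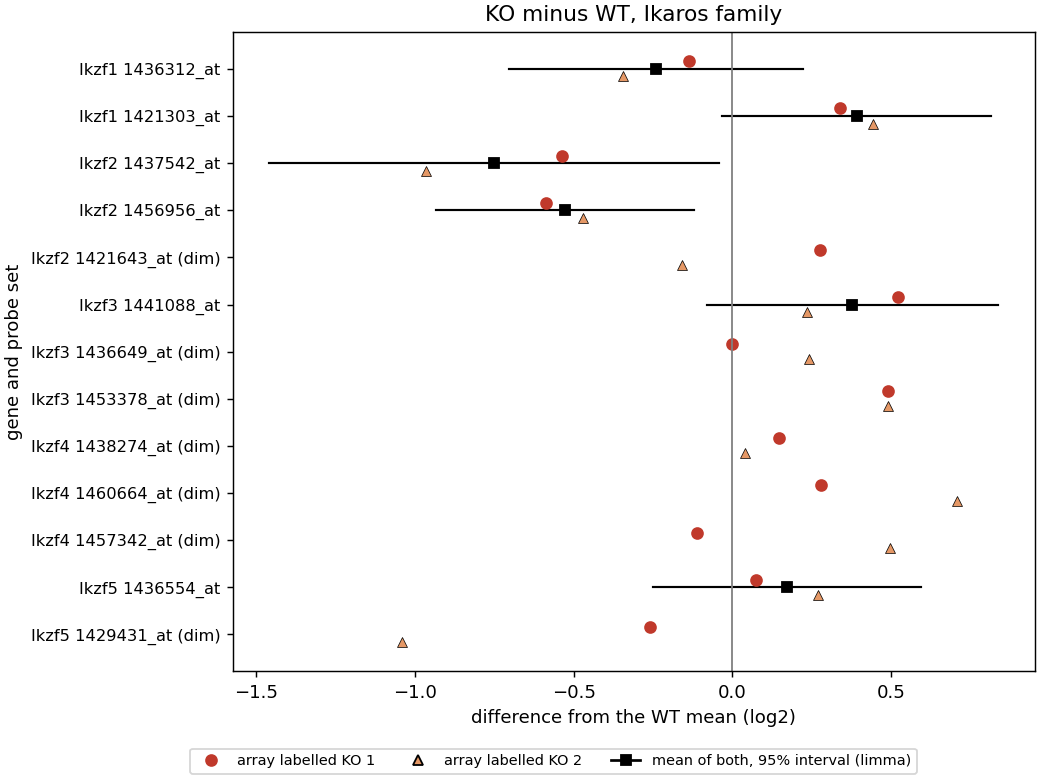
Difference of each array labelled KO from the WT mean (log2), for each Ikaros family probe set. Circles are KO 1, triangles KO 2, and squares with bars are the mean of both with its 95% interval from limma, drawn for the 6 tested probe sets. Only the intervals of the 2 tested Ikzf2 probe sets, −1.46 to −0.042 and −0.93 to −0.12, leave out 0.

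Ikaros (Ikzf1) gave a strong signal on all 4 arrays. Its bright probe set (1436312_at) read 11.09 and 10.88 on the arrays labelled KO, against 11.10 and 11.35 on the WT arrays. KO 1 and WT 1 nearly coincided, and that small gap alone separated the groups. The means were 10.98 ± 0.15 on the arrays labelled KO and 11.22 ± 0.17 on the WT arrays (SD, n = 2 each). The difference of −0.24 (SE 0.19, adjusted p = 0.644) was 1.18-fold, with a 95% interval from −0.70 to 0.22. That interval holds both a decrease of up to 0.70 on the log2 scale and a small increase. Leaving out the array labelled KO 2 gave −0.14 and leaving out WT array 2 gave −0.12, while leaving out the array labelled KO 1 gave −0.34 and leaving out WT array 1 gave −0.36.

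The second Ikzf1 probe set (1421303_at) lay at the filter and went the opposite way. It read 5.86 and 5.96 on the arrays labelled KO, against 5.60 and 5.43 on the WT arrays. The WT values were themselves below 5.69, so this probe set was tested only through its values on the arrays labelled KO. The difference was 0.39 (SE 0.17, adjusted p = 0.611). With the mean of both probe sets, Ikzf1 had a difference of 0.075 (adjusted p = 0.833), so the sign of an Ikzf1 value rests on which probe set is read.

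The RefSeq table of promoters held windows for Ikzf1, on chromosome 11, and for Ikzf5, on chromosome 7. The 250 bases before each start are shown on build GRCm38.p6 because Ikaros proteins bind a GGGAA core, which stands in capitals on either strand (GGGAA or TTCCC).
Ikzf1, upstream start, chr11:11685675-11685924, plus strand: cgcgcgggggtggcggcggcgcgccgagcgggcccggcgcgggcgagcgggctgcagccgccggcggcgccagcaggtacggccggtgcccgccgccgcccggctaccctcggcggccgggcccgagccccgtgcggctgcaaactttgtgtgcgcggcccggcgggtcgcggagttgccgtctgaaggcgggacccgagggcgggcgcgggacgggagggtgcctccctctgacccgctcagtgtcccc
Ikzf1, downstream start, chr11:11689927-11690176, plus strand: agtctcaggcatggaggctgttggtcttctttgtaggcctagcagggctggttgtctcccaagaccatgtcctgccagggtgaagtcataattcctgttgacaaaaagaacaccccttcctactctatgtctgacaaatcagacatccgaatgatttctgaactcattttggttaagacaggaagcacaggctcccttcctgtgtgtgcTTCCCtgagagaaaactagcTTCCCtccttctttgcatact
Ikzf5, chr7:131410479-131410728, minus strand: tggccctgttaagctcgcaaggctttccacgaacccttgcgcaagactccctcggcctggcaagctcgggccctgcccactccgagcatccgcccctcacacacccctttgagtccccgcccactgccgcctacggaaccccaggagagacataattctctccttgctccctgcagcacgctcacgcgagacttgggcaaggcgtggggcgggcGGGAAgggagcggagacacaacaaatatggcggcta

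The upstream Ikzf1 window had a GC content of 82% and held 0 GGGAA cores, and the downstream one had 47.6% and held 2. The Ikzf5 window held 1. Of 32841 windows of this length, 56.2% held at least 1. The E-box CANNTG, which basic helix-loop-helix factors such as Lyl1 bind as dimers with E proteins, was in 66.2% of all windows and in 0 of these 3. GATA, read on either strand, was in 53.6% of all windows and also in 0 of the 3. A match is a run of letters and no measurement of binding, and E-boxes elsewhere in these genes were not searched.

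Aiolos (Ikzf3) gave weak signals that were higher on the arrays labelled KO where the groups did not overlap. Its 1 tested probe set (1441088_at) read 6.10 and 5.82 on the arrays labelled KO, against 5.64 and 5.53 on the WT arrays. Both WT values lay below the filter, so this probe set too was tested only through its values on the arrays labelled KO. The difference was 0.38 (SE 0.18, adjusted p = 0.611), with a 95% interval from −0.080 to 0.84. It was larger on the array labelled KO 1 (0.52) than on the array labelled KO 2 (0.24). Of the dim Ikzf3 probe sets, 1453378_at read 3.77 on both arrays labelled KO, against 3.21 and 3.35 on the WT arrays. The remaining one (1436649_at) read 4.03 and 4.27 on the arrays labelled KO, against 3.97 and 4.08 on the WT arrays, with overlap.

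Eos (Ikzf4) was dim in all 3 of its probe sets and on every array. The highest (1438274_at) read 5.62 and 5.52 on the arrays labelled KO, against 5.38 and 5.58 on the WT arrays, and the groups overlapped. The probe set with a RefSeq transcript accession (1460664_at) read 4.02 and 4.45 on the arrays labelled KO, against 3.60 and 3.87 on the WT arrays, with no overlap. The last (1457342_at) read 3.62 and 4.23 on the arrays labelled KO, against 3.84 and 3.62 on the WT arrays. Foxp3, the regulatory T cell factor that Eos partners, was dim as well, at 4.23 and 4.39 on the arrays labelled KO, against 3.97 and 4.04 on the WT arrays.

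Pegasus (Ikzf5) had a steady probe set and a variable one. The steady one (1436554_at) read 6.42 and 6.61 on the arrays labelled KO, against 6.34 and 6.35 on the WT arrays, a difference of 0.17 (SE 0.17, adjusted p = 0.704). It was at 0.076 without the array labelled KO 2 and at 0.27 without the array labelled KO 1. The variable one (1429431_at) was dim on average and read 5.55 and 4.77 on the arrays labelled KO, against 5.50 and 6.12 on the WT arrays. Its groups overlapped, and its spread within each group was close to its difference of −0.65. With the mean of the probe sets Ikzf5 had a difference of −0.24 (adjusted p = 0.669), opposite in sign to the steady probe set.

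Among the 7 dim family probe sets, 6 had a positive difference, and in 2 of them the arrays labelled KO lay above the WT arrays without overlap, with 0 below. Over all 22518 dim probe sets 75.5% had a positive difference, 37.2% were higher without overlap and 7.56% lower, and the family's shares are near these. Nearest the filter, Ikzf1 1421303_at (mean 5.71) and Ikzf3 1441088_at (5.77) lay just inside, and Ikzf4 1438274_at (5.52) and Ikzf5 1429431_at (5.49) just outside.

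Differences over all probe sets went with level. Over all probe sets in the brightest quintile by mean, the median difference from the WT mean was −0.027 on the array labelled KO 1 and −0.16 on the array labelled KO 2. In the dimmest quintile it was 0.040 and 0.19. The values of the array labelled KO 2 spanned a narrower range, with an SD of 2.34 over probe sets against 2.44 to 2.48 on the other arrays. Against this background the 2 tested Ikzf2 probe sets, in the brightest and the next brightest quintile, lay further below 0 on each array labelled KO, from −0.47 to −0.96. The bright Ikzf1 probe set, at −0.14 and −0.34, lay nearer the median of its quintile. Quantile normalization, which gives every array the same distribution, left Ikzf2 at −0.65 and −0.38 (adjusted p = 0.665 for both) and Ikzf1 1436312_at at −0.20. After it the groups of Ikzf1 1436312_at overlapped, and the groups of the other 5 tested family probe sets did not, with 2 lower and 3 higher. Over all tested probe sets 18.7% were then lower without overlap and 23.4% higher.

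**Figure D3:**
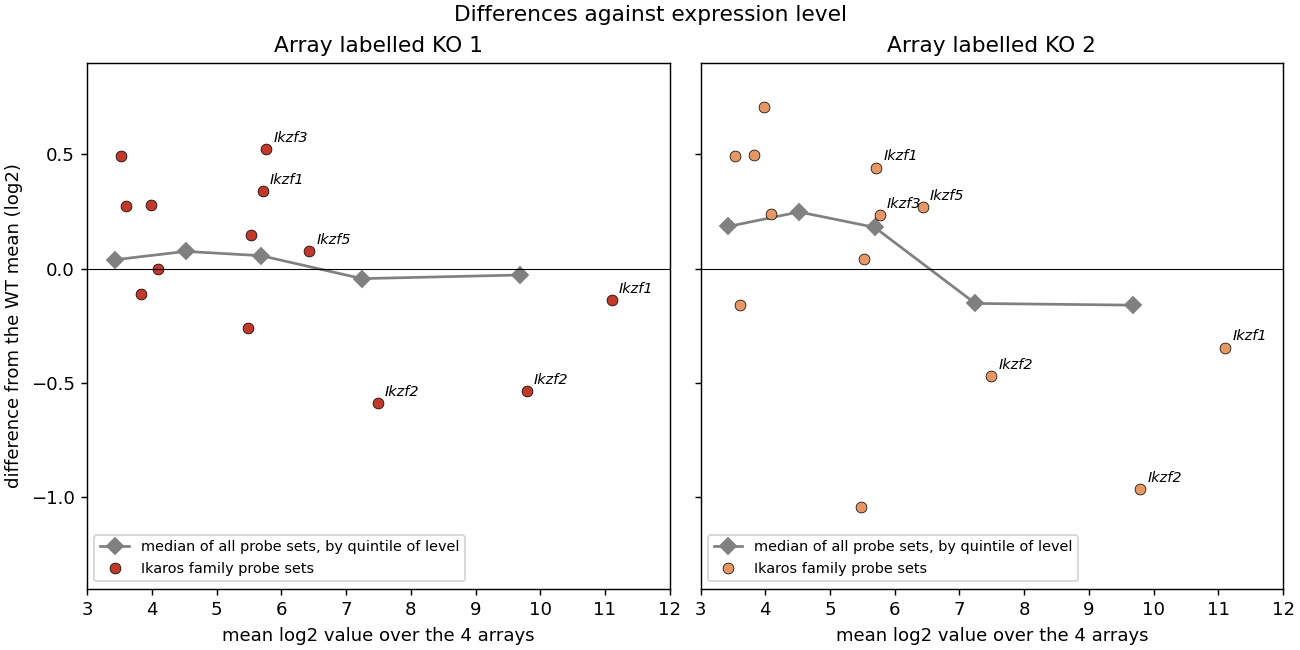
Difference from the WT mean (log2) against the mean log2 value over the 4 arrays, for the arrays labelled KO 1 (left) and KO 2 (right). Grey diamonds are the medians of all probe sets in 5 equal groups by level, and coloured points are the 13 Ikaros family probe sets, with the 6 tested ones named. For KO 2 the grey medians run from 0.19 in the dimmest quintile to −0.16 in the brightest, and the 2 named Ikzf2 points lie below the line in both panels.

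The proteins that work with the Ikaros family were read next, each gene from its brightest probe set. All 14 subunits of NuRD were tested, and 0 passed in limma. The median difference was −0.11, against −0.069 over all tested probe sets, with 6 positive and 8 negative. The median was 0.044 on KO 1 and −0.19 on KO 2. Over all 22519 tested probe sets 9150 differences were positive and 13369 negative, and 7.39% had an unadjusted p under 0.05 in limma. Chd3, a helicase-like ATPase of the complex, was the 1 subunit with an unadjusted p under 0.05. It read 11.09 and 11.11 on the arrays labelled KO, against 11.71 and 11.51 on the WT arrays, a difference of −0.51 (SE 0.17, adjusted p = 0.611). Mbd3, a methyl-CpG-binding domain protein of the complex, read 9.11 and 7.82 on the arrays labelled KO, against 9.12 and 9.27 on the WT arrays, so only the array labelled KO 2 stood apart. Without the array labelled KO 1, Mbd3 (−1.38, adjusted p = 0.0253) and the subunit gene Mta3 (−0.96, adjusted p = 0.0383) passed downward, in a fit that called 8.33% of all probe sets downward. Without the array labelled KO 2 neither passed, with −0.090 for Mbd3 and 0.32 for Mta3. Of the other Mta3 probe sets above the filter, 1421402_at had −0.33, with 0.31 on KO 1 and −0.98 on KO 2, and 1443350_at had 0.35, with 0.33 and 0.37 in the same order.

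Other partners and the enzymes that act on Ikaros proteins gave 0 calls in limma as well. Of 10 other corepressor and SWI/SNF genes tested, 4 were positive and 6 negative, with a median of −0.078 (0.014 on KO 1 and −0.25 on KO 2) and 0 at an unadjusted p under 0.05. Smarca4, the Brg1 ATPase, had −0.35 (SE 0.23), with −0.11 on KO 1 and −0.59 on KO 2. The SWI/SNF subunit gene Smarce1 had 0.31 (SE 0.24), with 0.013 on KO 1 and 0.61 on KO 2, and −0.0049 in a second probe set. Both differences lay mostly on the array whose Lyl1 signal goes against its label. Of 11 genes for casein kinase 2, which phosphorylates Ikaros, for protein phosphatase 1, which removes the phosphates, for the cereblon ubiquitin ligase, which degrades Ikaros and Aiolos in human cells treated with lenalidomide, and for the kinases Syk and Btk, 2 were positive and 9 negative. Their median was −0.20, with −0.057 on the array labelled KO 1 and −0.34 on the array labelled KO 2. Ppp1cb, a catalytic subunit of protein phosphatase 1, read 9.15 and 8.98 on the arrays labelled KO, against 9.46 and 9.52 on the WT arrays, a difference of −0.42 (SE 0.17, adjusted p = 0.611). A second Ppp1cb probe set had −0.16, with 0.15 on KO 1 and −0.46 on KO 2. Csnk2a1, a catalytic subunit of casein kinase 2, had 0.38 (SE 0.26), with 0.042 on KO 1 and 0.73 on KO 2, so without KO 2 the difference was 0.042. Its other 4 probe sets above the filter had −0.30 to 0.12. Trps1, which shares the C-terminal finger type of the family, had 0.025 (SE 0.32), with −0.44 on the array labelled KO 1 and 0.49 on the array labelled KO 2.

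Genes that lymphoid cells need Ikaros for, or that it activates, had a median difference of 0.11 (0.14 on KO 1 and 0.10 on KO 2). Of 12 tested, 8 were positive, 4 were negative and 0 passed the threshold in limma. Flt3, among the 4 negative ones, had −0.49, with −0.22 on KO 1 and −0.76 on KO 2. Over all 22519 tested probe sets 9150 differences were positive. At an unadjusted p under 0.05 in limma there were 3 of the 12, where 7.39% of all tested probe sets lay under it. Rag2, a subunit of the V(D)J recombinase, read 6.85 and 6.90 on the arrays labelled KO, against 6.12 and 6.17 on the WT arrays, a difference of 0.73 (SE 0.16, adjusted p = 0.611). The groups were far apart relative to their spread. The interleukin-7 receptor gene Il7r had 0.65 (SE 0.19), with 0.76 on KO 1 and 0.54 on KO 2. A second Il7r probe set had 0.27, with 0.72 on KO 1 and −0.17 on KO 2. Cdkn1a, a cell cycle inhibitor whose place in this list is less certain, had 1.98 (SE 0.31, adjusted p = 0.369), with 1.56 on KO 1 and 2.40 on KO 2. A second Cdkn1a probe set had 0.74, with 1.58 on KO 1 and −0.11 on KO 2. Without the array labelled KO 1, Rag2 (0.75, adjusted p = 0.0481) and Cdkn1a (2.40, adjusted p = 0.0158) passed upward and the chemokine receptor gene Ccr9 (−1.097, adjusted p = 0.0279) downward, where 10.1% of all probe sets were called. Without the array labelled KO 2, 0 of the 12 passed. Ccr9 had 0.097 on KO 1, and its other 2 probe sets above the filter had −0.052 and −0.15.

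Genes that Ikaros represses in lymphoid cells had a median of 0.0084 (0.12 on KO 1 and −0.31 on KO 2), with 5 of 9 tested positive, 4 negative and 0 past the threshold in limma. Ptcra and Notch3 were dim. Vpreb1, a surrogate light chain of the pre-B cell receptor, read 10.39 and 10.15 on the arrays labelled KO, against 9.71 and 9.70 on the WT arrays. Its difference of 0.56 (SE 0.17, adjusted p = 0.611) was the 1 with an unadjusted p under 0.05. Igll1, the other surrogate light chain gene, went the opposite way at −0.50 (SE 0.26), with −0.28 on KO 1 and −0.73 on KO 2. The cyclin gene Ccnd3 had −0.83 without the array labelled KO 1 and 0.22 without the array labelled KO 2. Its other probe sets above the filter, 1438805_at and 1444323_at, had −0.22 and −0.0009 with all arrays. Beside these target genes, the summed log2 signal of mature B cell genes was 7.26 and 7.51 on the arrays labelled KO, against 7.16 and 7.18 on the WT arrays, with Ms4a1, Cr2 and Fcer2a dim. That of mature T cell genes was 8.06 and 8.29 on the arrays labelled KO, against 7.91 and 7.85 on the WT arrays, with Cd3g and Foxp3 dim. Their part in the target gene values was not tested.

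**Figure D4:**
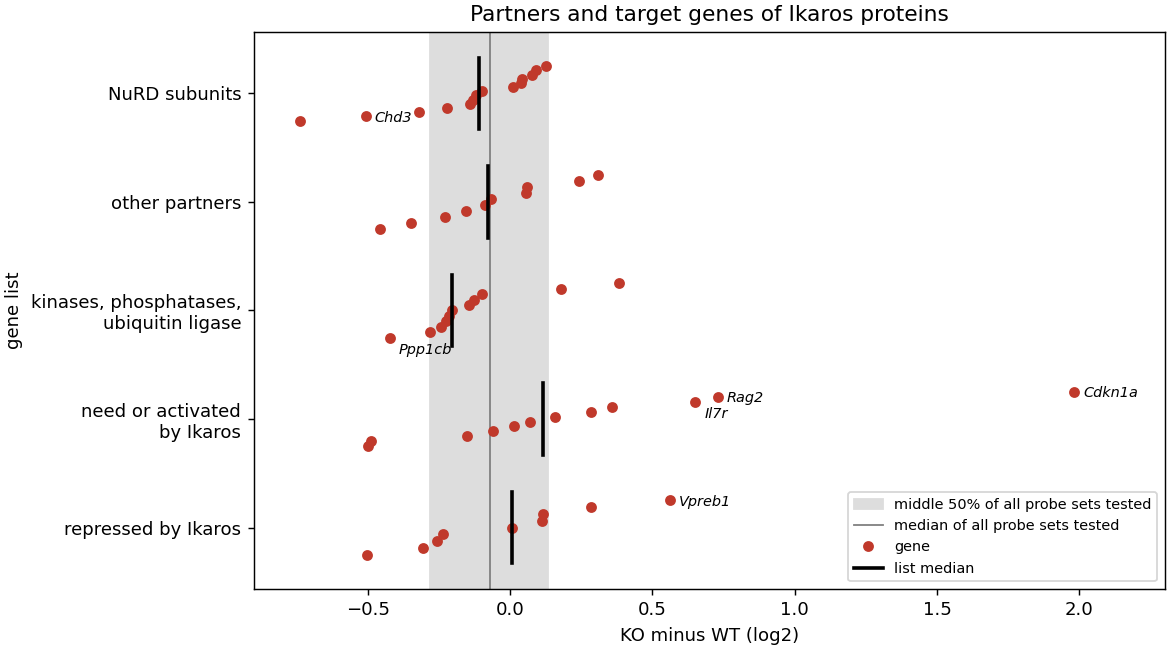
KO minus WT difference (log2) of each tested gene in the 5 lists of Ikaros partners, modifying enzymes and targets. Points are genes, black bars list medians, the grey band the middle 50% of all tested probe sets and the grey line their median of −0.069. Genes with an unadjusted p under 0.05 are named, Cdkn1a is farthest to the right at 1.98, and list medians run from −0.20 to 0.11.

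For each gene of the family with a tested probe set, the 2 genes with the most similar profile over the 4 arrays were sought. Similarity was the root mean square distance, in log2 units, between values centred on their own mean, among up to 18847 probe sets with 1 gene. For Ikzf2 1437542_at these were Coro7 (0.059), which encodes a coronin of the Golgi, and the carboxypeptidase gene Prcp (0.070). Coro7 had differences of −0.47 and −0.98 on the arrays labelled KO 1 and KO 2, beside −0.54 and −0.96 for Ikzf2. For Ikzf1 1436312_at they were Fam160b1 (0.0023) and the glutathione peroxidase gene Gpx2 (0.0081). For Ikzf3 1441088_at they were Cavin3 (0.024) and the RNA acetyltransferase gene Nat10 (0.026), and for Ikzf5 1436554_at Nanos1 (0.0068) and Chmp4b (0.0080). Each match was through 1 probe set of the gene and need not hold for its others. The brighter Nat10 probe set had a difference of 0.12 and the brightest Prcp probe set −0.10, both with overlap between the groups. With 4 arrays and so many candidates, these distances are a description only.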

How the data were processed

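The authors deposited 1 column of log2 expression values for each of 4 arrays, and the submitters' processing notes name RMA. RMA corrects background, equalises array distributions and summarises probes. The sources used here give neither its version nor whether further arrays were normalized along with these. The authors' values were used without further normalization. The number of arrays limits the precision.

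Probe sets were named from the platform annotation, 34945 of 45037 with 1 gene symbol, 932 with several and 9160 not listed with a gene. All 13 family probe sets matched the RefSeq gene table of GRCm38.p6 by gene identifier with their symbol unchanged. Promoter sequences come from RefSeq on the same build.

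Probe sets with a mean of at least 5.69 were fitted by genotype in limma 3.58.1 (R 4.3.3; lmFit, eBayes), with a threshold of 0.05. The fit was tested on simulated data. Lists were read from the brightest probe set of each gene and described by counts and medians. Named were all family probe sets, in each list the genes past the threshold or else the 2 with the smallest p, and the 2 nearest profiles. Others (Il7r, Mta3, Ccr9, Ccnd3, Ctse, Lrmda, and Flt3 as a gene that needs Ikaros) were named after their values were seen. The members and lists were chosen with earlier results of these data known.

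Same-numbered arrays had opposite deviations (r = −0.38 over 22519 probe sets between replicate 1 minus replicate 2 in each group). The array labelled KO 2 stands apart from the others, so this r cannot tell whether same-numbered samples were handled together. No pairing was used in the main fit. Alternatives covered the filter, probe set choice, normalization, variance prior, array weights, threshold, blocks and each array left out.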

Additional observations from a re-analysis of the deposited data

How the results depend on the processing

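The count of family probe sets past the threshold in limma was 0 under all 16 alternatives, 15 planned and 1 added after seeing the data. At an unadjusted p under 0.05 it was 2 of 6 in the fit as reported, 0 with quantile normalization or the replicate block, 1 with array weights and 0 to 3 with 1 array left out. The count over all probe sets was 2 with all arrays. It was 1 with the 70th percentile filter, with 1 probe set per gene or with median centring, 10 with array weights and 8 at a threshold of 0.10. It was 0 with the mean of probe sets, where 736 had an unadjusted p under 0.05. Leaving out 1 array gave 0 to 2269, the highest without the array labelled KO 1. With the replicate number as a block 3 probe sets passed, and with the crossed block, added later, 2. Signs of the tested family probe sets held except with the mean of probe sets, which gave 0.075 for Ikzf1 and −0.24 for Ikzf5, since their probe sets differ in sign. Adjusted p ranged from 0.0872 to 1 for Ikzf2 1437542_at and from 0.11 to 1 for Ikzf2 1456956_at.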

Other observations

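The dim Ikzf3 probe set 1453378_at held the same deposited value on both arrays labelled KO. Among 22518 dim probe sets, 144 had identical values in this pair of arrays.

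All 6 Coro7 probe sets above the filter had negative differences, from −1.07 to −0.54. Coro7 was picked because 1 of them was nearest to Ikzf2 in profile, so the sign of that one followed from the choice. Over all 22519 tested probe sets 13369 differences were negative. Prcp, the other gene near Ikzf2, had −0.77 in the matching probe set and −0.19 to 0.095 in its others above the filter.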
